A study of Mus musculus with 6 samples.

Results

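Most of 8 interferon-inducible GTPase genes of the cell-autonomous immune response rose in mouse prostate cancer cells stimulated with CSF-1. Of the 8, 6 were called higher after 24 h, where 4.55% of all genes tested were, and 7 after 48 h, where 3.95% were. Tgtp1, by the probe that carries its name, passed the test at 48 h alone, and Mx2 passed at neither time. The probes of its near copy Tgtp2, annotated to the same transcripts as the Tgtp1 probe, changed by 3.06 and 0.85 at 24 h on the log2 scale. The calls at 24 h depended on single arrays and were lost without 24H CSF1 replicate 2. Calls over all genes tested at 24 h also fell without either Control array. Every stimulated array lay above both unstimulated arrays for all 8, where this held for 31.3% of all genes tested at 24 h and 23.8% at 48 h. The increases ran from 4.10-fold for Iigp1 to 41.5-fold for Igtp among the called genes that were measured on every unstimulated array at 24 h, and from 8.30-fold for Irgm1 to 132-fold for Igtp at 48 h. The genes are Irgm1, Irgm2, Igtp, Iigp1 and Tgtp1 of the immunity-related GTPases (IRG), the dynamin-like Mx1 and Mx2, and the very large GTPase Gvin1. They were taken by their gene names in the array annotation and make up 8 of 36028 genes for which a probe could be used.

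The IRG proteins are interferon-induced GTPases that mouse cells use against bacteria and protozoa living in vacuoles. Irgm1, Irgm2 and Igtp are the regulatory IRG proteins, which sit on the cell's own membranes and hold the others inactive there. Iigp1 and Tgtp1 are effector IRG proteins, which load onto the membrane of a pathogen's vacuole and break it. Mx1 and Mx2 are GTPases of the dynamin superfamily that block the multiplication of RNA viruses, the first in the nucleus and the second in the cytoplasm. Interferons act on such genes through transcription factors that bind the interferon-stimulated response element (ISRE), chiefly after type I interferon, or the gamma-activated site (GAS), after interferon gamma.

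The cells were N18-Fms, labelled N18-CFMS, a luciferase-expressing clone of the C2H line derived from a prostate tumor of the TRAMP mouse. All 3 groups carried the receptor for CSF-1 (Fms), introduced with a retrovirus and sorted for at the cell surface, and all were grown with serum and dihydrotestosterone. The groups were unstimulated cells (Control) and cells given recombinant mouse CSF-1 at 100 ng/mL for 24 h (24H CSF1) or 48 h (48H CSF1), with 2 single-color Agilent arrays each. The sources give 2 independent experiments but do not tie the arrays to them, so p-values measure the spread between arrays, which may be partly technical, and 1 clone limits the model to itself.

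Each array held 59305 spots other than controls, of which 58.7% to 72.0% were well above background and 0 were saturated. A gene was represented by its brightest probe, and the 24643 genes that cleared the background in both replicates of some group were tested. Levels below are log2 signals relative to the 75th percentile of the array, and they are compared only within a probe. The array 24H CSF1 replicate 1 lay alone on another slide, scanned separately from the other 5. Of the defining epithelial markers, Cdh1 was not well above background on any array and Epcam was on 1 of 6. The summed level of 8 fibroblast and muscle markers was 347 and 355 in Control against 127 to 169 in the stimulated arrays, with Myh11 not well above background anywhere. Col1a1 and Col1a2 held most of that sum, 4 of the 6 tested were called lower at each time, and Pdgfra was called higher at 24 h (log2 change 1.33, limma adjusted p = 0.0178). The part of these markers in the results below was not tested.

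The promoters are shown because the 4 members found in the RefSeq promoter table share letters that the choice of genes did not use. They are the regulators Irgm1, Irgm2 and Igtp and the effector Tgtp1, all on chromosome 11, and each is given over 90 bases, 5′ to 3′ on the strand of the gene, in build GRCm38.p6. Capitals mark matches to the ISRE letters, GAAA repeated after any 2 bases, and to the GAS letters TTCNNNGAA.
Irgm1, chr11:48871421-48871510, minus strand: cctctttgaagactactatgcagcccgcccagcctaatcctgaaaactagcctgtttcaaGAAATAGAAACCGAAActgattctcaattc
Irgm2, chr11:58214887-58214976, plus strand: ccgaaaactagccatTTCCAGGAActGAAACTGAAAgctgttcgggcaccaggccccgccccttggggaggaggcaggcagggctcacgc
Igtp, chr11:58199466-58199555, plus strand: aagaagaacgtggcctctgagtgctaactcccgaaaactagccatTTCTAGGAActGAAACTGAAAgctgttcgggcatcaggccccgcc
Tgtp1, chr11:48992247-48992336, minus strand: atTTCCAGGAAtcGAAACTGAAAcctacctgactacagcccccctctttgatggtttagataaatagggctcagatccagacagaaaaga

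All 4 promoters held the ISRE letters, against 3.44% of the 32851 mouse promoters in the table, each 250 bases before to 50 after a transcription start and searched on both strands. Irgm2, Igtp and Tgtp1 also held the GAS letters, against 8.30% of all promoters, and 0.454% held both. In Irgm1 the ISRE letters matched at a pair of overlapping places, from 30 to 21 and from 24 to 15 bases before the start, and the GAS letters were not in the window. In Irgm2 the GAS letters lay 75 to 67 bases before the start, followed by the ISRE letters 64 to 55 bases before it. The same order stood closer to the start in Igtp, with the GAS letters at 45 to 37 and the ISRE letters at 34 to 25 bases before it, and farther away in Tgtp1, at 88 to 80 and 77 to 68 bases.

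In these 3 promoters exactly 2 bases separated the GAS from the ISRE letters. The joint run of GAS letters, any 2 bases and ISRE letters on the same strand, searched after this spacing was seen, was found in 5 of the 32851 promoters (0.0152%): those of Irgm2, Igtp, Tgtp1, its near copy Tgtp2, and Gm12185, a gene model close to Tgtp1 in the RefSeq gene order. Igtp and Irgm2 are immediate neighbors and their promoters were identical at 72.8% of aligned positions, whereas the other pairs of the 4 promoters shared 43.2% to 50.5%. Of 11 other interferon-inducible GTPase genes with an entry, 9 held the ISRE letters and 4 the GAS letters, and of 10 constitutively expressed dynamin-family genes 0 held either. These matches describe letters only.

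**Figure D1:**
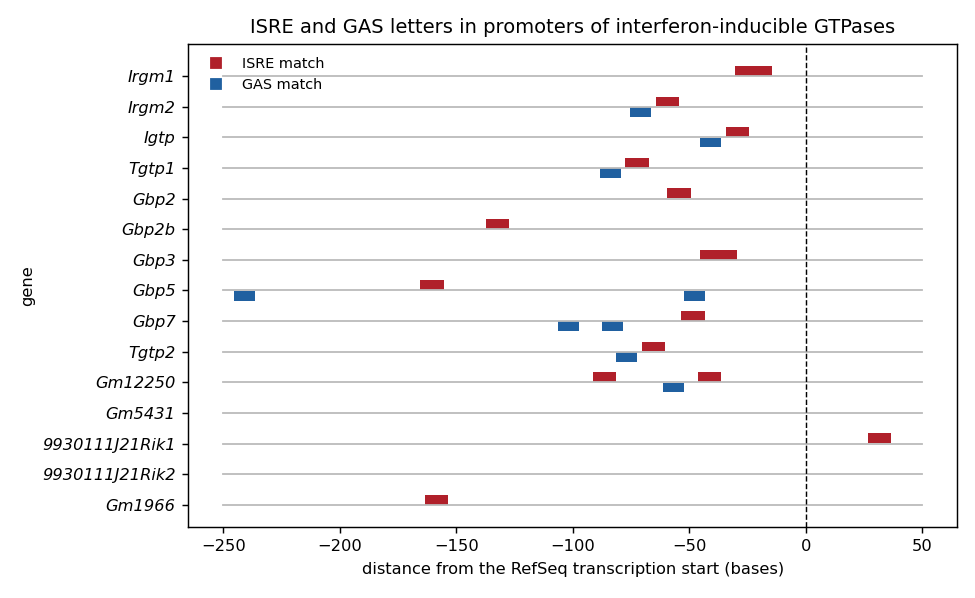
Places of the ISRE letters (red) and GAS letters (blue) in promoters of the members and of other interferon-inducible GTPases, as distance in bases from the RefSeq transcription start (dashed line), with 1 row per gene. In Irgm2, Igtp and Tgtp1 a GAS match lies directly before an ISRE match, as in Tgtp2.

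The regulatory IRG genes were called higher at both times. Irgm1, whose probe lies on chromosome 11 in build mm9 (48679069 to 48679128), read 0.92 and 1.204 in the Control arrays, 3.03 and 3.20 at 24 h, and 3.74 and 4.49 at 48 h. The 3 groups did not overlap, and the 48 h arrays were the farthest apart. The increase was 2.05 on the log2 scale at 24 h (SE 0.268, limma adjusted p = 0.0112) and 3.05 at 48 h (SE 0.268, adjusted p = 0.00418). Its second probe gave 1.86 and 2.94.

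Irgm2 had the largest fitted change of the 8. It read -6.81 and -4.38 in the Control arrays, 1.02 and 1.38 at 24 h, and 2.07 and 3.02 at 48 h. The lower of the Control arrays was not well above background, and both stimulated groups lay far above the other one. The increase was 6.79 at 24 h (SE 0.810, limma adjusted p = 0.00929) and 8.14 at 48 h (SE 0.810, adjusted p = 0.0057). Since 1 Control array had no level above background, with that array raised to its background floor the changes were 54.4-fold and 138-fold. With normexp background correction they were 3.87 and 5.20 on the log2 scale, below those of Igtp (4.59 and 6.26).

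Igtp lies next to Irgm2 on chromosome 11 and was read by a probe printed in 10 spots on every array. Its level was -3.11 and -1.45 in Control, 2.89 and 3.30 at 24 h, and 4.27 and 5.25 at 48 h. All Control signals were well above background, and the groups were ordered without overlap. The increase was 5.38 (SE 0.611, limma adjusted p = 0.00831) at 24 h and 7.04 (SE 0.611, adjusted p = 0.004) at 48 h, or 41.5-fold and 132-fold.

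**Figure D2:**
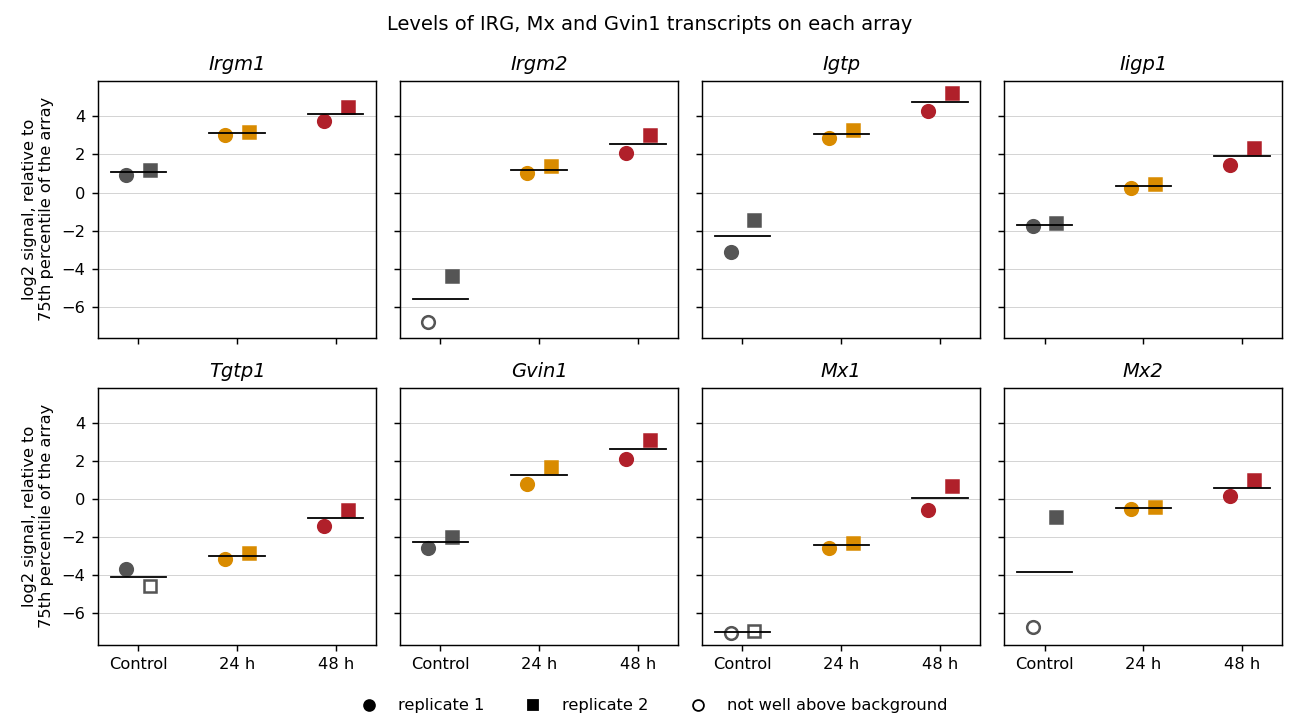
Level of each gene on each array, as log2 signal relative to the 75th percentile of the array, for 2 arrays per group (circle, replicate 1, and square, replicate 2) with the group mean as a line; open symbols were not well above background. In all 8 panels the stimulated arrays lie above both Control arrays and the 48 h arrays above the 24 h arrays; heights should not be compared between genes.

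Of the effector IRG genes, Iigp1 was called higher at both times and Tgtp1 at 48 h. Iigp1, on chromosome 18, read -1.76 and -1.62 in Control, 0.25 and 0.44 at 24 h, and 1.45 and 2.35 at 48 h, with no overlap between groups. The increase was 2.04 (SE 0.30, limma adjusted p = 0.0156) and 3.59 (SE 0.30, adjusted p = 0.00356). A dimmer Iigp1 probe was not well above background in either Control array, so it passed the filter only through the stimulated arrays. Against the background floor its increase was at least 15.3-fold at 24 h and at least 43.8-fold at 48 h. Its fitted log2 changes, which take the dim Control signals as they stand, were 4.36 and 5.87. The limma adjusted p-values in a fit by probe, 0.00899 and 0.0042, belong to these fitted changes and not to the bounds. The brighter probe shares runs of 15 or more bases with 3 probes of other names, 1 of them of Naip5, whose changes lay between -0.24 and -0.14 at both times. Whether such sequence lowers the change read by the brighter probe was not tested.

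Tgtp1 had the smallest fitted change of the 8 at 24 h. Its Control arrays read -3.67 and -4.55, the second not well above background, those at 24 h -3.16 and -2.81, and those at 48 h -1.40 and -0.57. The 24 h arrays exceeded both Control arrays, but by little against the gap within Control. The change at 24 h was 1.12 (SE 0.395, limma adjusted p = 0.124) and was not called, while that at 48 h was 3.12 (SE 0.395, adjusted p = 0.0108). Tgtp1 and Tgtp2 are near-identical copies whose signals cannot be told apart with certainty: the annotation gives the Tgtp1 probe and both Tgtp2 probes to the same pair of transcripts, and those 2 probes gave 3.06 and 0.85 at 24 h (limma adjusted p = 0.0119 and 0.0937 in the fit by probe) and 5.40 and 2.47 at 48 h.

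The antiviral gene Mx1 was called higher at both times. Its signals in Control, -7.02 and -6.94, were not well above background, and it read -2.54 and -2.30 at 24 h and -0.58 and 0.73 at 48 h. All 4 stimulated arrays were well above background. Against the background floor the increase was at least 4.93-fold at 24 h and at least 27.8-fold at 48 h. The fitted log2 changes, which take the dim Control signals as they stand, were 4.56 (limma adjusted p = 0.00509) and 7.05 (adjusted p = 0.00151), and 1.54 and 3.50 after normexp correction. These p-values belong to the fitted changes and not to the bounds, and Mx1 passed the filter only through the stimulated arrays.

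Mx2 was the gene on which the Control arrays disagreed most. It read -6.70, not well above background, in Control replicate 1 and -0.93 in replicate 2, against -0.49 and -0.41 at 24 h and 0.19 and 1.0 at 48 h. Control replicate 2 was therefore close to the 24 h arrays, and replicate 1 stood at background. The fitted changes of 3.36 at 24 h (SE 1.78, limma adjusted p = 0.27) and 4.41 at 48 h (SE 1.78, adjusted p = 0.166) were not called, with 95% intervals from -1.103 to 7.83 and from -0.06 to 8.88. Without Control replicate 2 they were 6.25 (adjusted p = 0.0239) and 7.29 (adjusted p = 0.0174), and without Control replicate 1 they were 0.48 and 1.53. Over the alternatives the adjusted p ran from 0.0239 to 0.591 at 24 h and from 0.0174 to 0.504 at 48 h. RefSeq lists Mx1 and Mx2 of the C57BL/6J reference as transcribed pseudogenes. They lie on chromosome 16 with 1 gene, Fam3b, between them.

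Gvin1, on chromosome 7, encodes a very large GTPase induced by interferon. It read -2.55 and -1.97 in Control, 0.82 and 1.70 at 24 h, and 2.15 and 3.13 at 48 h, without overlap between groups. The increase was 3.52 (SE 0.449, limma adjusted p = 0.0107) at 24 h and 4.89 (SE 0.449, adjusted p = 0.00459) at 48 h. Its second probe gave 2.27 and 3.55, and because the annotation assigns both probes to more than 1 transcript, signal from close relatives cannot be told apart from it.

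**Figure D3:**
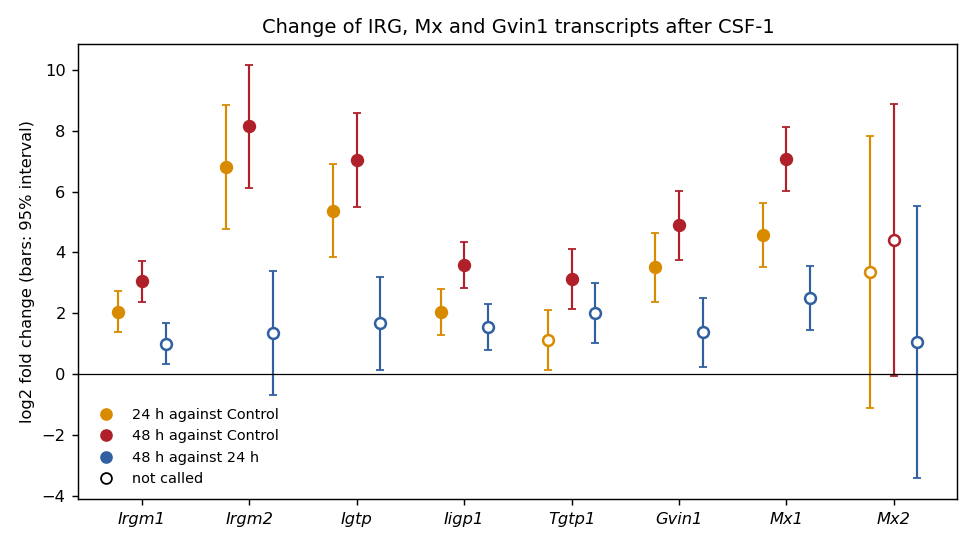
Fitted log2 fold changes (points) with 95% intervals (bars) for the 8 genes, at 24 h and at 48 h against Control and at 48 h against 24 h; filled points were called. The intervals of Mx2 are the widest, and the points at 48 h lie above those at 24 h for all 8 genes.

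Seen as a group, 6 of 8 genes were called higher at 24 h (4.55% of all genes tested) and 7 of 8 at 48 h (3.95%), and 0 were called lower, against 1.62% and 1.45% of all genes. A call required a limma adjusted p under 0.05 and a change of at least 2-fold. The median log2 change of the members was 3.44 at 24 h and 4.65 at 48 h, against 0.04 and -0.04 over all genes tested, and with Mx1 at its bound it was 2.83 and 4.6. Of the 7 members other than Mx1, each measured on at least 1 Control array, 5 were called at 24 h and 6 at 48 h. Stimulated arrays lay above both Control arrays for 31.3% of all genes at 24 h and 23.8% at 48 h. Under median centring, all-gene calls at 24 h were 798 higher and 957 lower in place of 1121 and 399, and quantile normalization gave 794 and 495. At 48 h median centring gave 882 and 546 in place of 973 and 358. The members' own calls were 6 and 7 under both.

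The calls at 24 h depended on single arrays more than those at 48 h. Leaving out either Control replicate, or 24H CSF1 replicate 1, the array on the other slide, took some of the calls at 24 h away. Leaving out 24H CSF1 replicate 2 took all of them, with log2 changes of the 6 genes of 1.94 to 6.61. Calls over all genes tested at 24 h also fell without either Control replicate, so that loss was not particular to the members. The members' median change at 24 h was 2.59 without Control replicate 1 and 4.2 without Control replicate 2. At 48 h Tgtp1 lost its call without 24H CSF1 replicate 2 and without Control replicate 2 (log2 change 2.68). Without Control replicate 2 Mx2 was called (7.29), and the other calls at 48 h were kept with any array left out. In RNA from a whole culture, more expressing cells and more RNA per cell cannot be told apart.

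The members were higher at 48 h than at 24 h in every array, though not beyond the test. Mx1 had the largest fitted difference, 2.49 on the log2 scale (SE 0.418, limma adjusted p = 0.138), followed by Tgtp1 with 2.002 (SE 0.395, adjusted p = 0.157) and Igtp with 1.67 (SE 0.611, adjusted p = 0.334). The smallest was 0.998 for Irgm1. By the adjusted test 0 members were called, as were 0% of all genes in either direction, whereas 6 members had an unadjusted limma p under 0.05 and 5 of these changed at least 2-fold, a rule met upward by 0.868% and downward by 1.40% of all genes. The median difference was 1.46 against -0.08 over all genes, and both 48 h arrays exceeded both 24 h arrays for 8 of 8 members and for 14.2% of all genes. Other settings judged by an adjusted p called up to 3 members: Iigp1, Tgtp1 and Mx1 passed after normexp background correction (limma adjusted p of 0.0443, 0.0325 and 0.0354).

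Replicate 2 read higher than replicate 1 for the members in 23 of 24 comparisons within a group. Tgtp1 in Control, at -0.88, was the exception. The median gap was 0.43 in Control, 0.29 at 24 h and 0.93 at 48 h, while 40.6%, 42.1% and 46.9% of all genes were higher in replicate 2. The gaps in Control were widest for Mx2 (5.77), Irgm2 (2.43) and Igtp (1.67), and at 48 h all 8 lay between 0.75 and 1.31. As a description over the same 6 arrays, each member's Pearson correlation with the mean of the other 7 was lowest for Mx2 (0.799) and Tgtp1 (0.845) and 0.975 to 0.9958 for the other 6.

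Of 17 other interferon-inducible GTPase genes tested, of 21 on the array, 10 were called higher at 24 h and 12 at 48 h, and 0 lower. For 7 of the 17 neither Control array was well above background, so these passed the filter only through stimulated arrays. Of the 10 measured on at least 1 Control array, 4 were called higher at 24 h and 6 at 48 h, with medians of 0.88 and 2.22. The 17 include the guanylate-binding proteins, which act with IRG proteins at pathogen vacuoles: Gbp2 rose by 5.43 and 6.89 (limma adjusted p = 0.0028 and 0.00138) and Gbp3 by 5.20 and 6.10 (adjusted p = 0.0052 and 0.00309). Gm12250, the effector IRG gene beside Igtp, changed by 0.88 at 24 h (limma adjusted p = 0.121) and rose by 2.74 at 48 h (adjusted p = 0.00788). For Gbp4 none of the Control and 24 h arrays was well above background, so its call at 24 h rests on background signals and carries no fold. Gbp9, Gbp10, Gm5431 and 9930111J21Rik1 lay between -0.10 and 0.13 at both times and were not called.

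Relatives that interferon is not known to induce were measured on the same arrays. Of 8 constitutive dynamin-family genes tested, 0 were called at either time by limma. Over all genes tested 4.55% were called higher and 1.62% lower at 24 h, and 3.95% and 1.45% at 48 h. Of the 8, 3 at 24 h and 4 at 48 h had an unadjusted limma p under 0.05. Over the 24643 genes tested 7717 and 7611 did. Among the 8 are Dnm2 for endocytosis and Opa1, Mfn1 and Mfn2 for mitochondrial fusion. At 48 h 2 genes passed the limma adjusted p under 2-fold, Mfn1 (-0.57, adjusted p = 0.0469) and Atl2 (-0.67, adjusted p = 0.0345). The medians of the 8 were -0.29 and -0.23. Irgq, an IRG-like gene not induced by interferon, changed by 0.80 and 0.64 (limma adjusted p = 0.0552 and 0.0966), and Irgc1 was not well above background on any array. Of 10 genes for the ATG8 conjugation machinery, which directs IRG proteins to vacuoles, 1 was called, Atg7 at 48 h (log2 change 1.01, limma adjusted p = 0.0219). Atg3 passed the limma adjusted p under 2-fold at both times (-0.83 and -0.78, adjusted p = 0.0272 and 0.0317). So did Atg7 at 24 h (0.73, adjusted p = 0.0462) and Atg12 at 48 h (0.46, adjusted p = 0.0478).

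**Figure D4:**
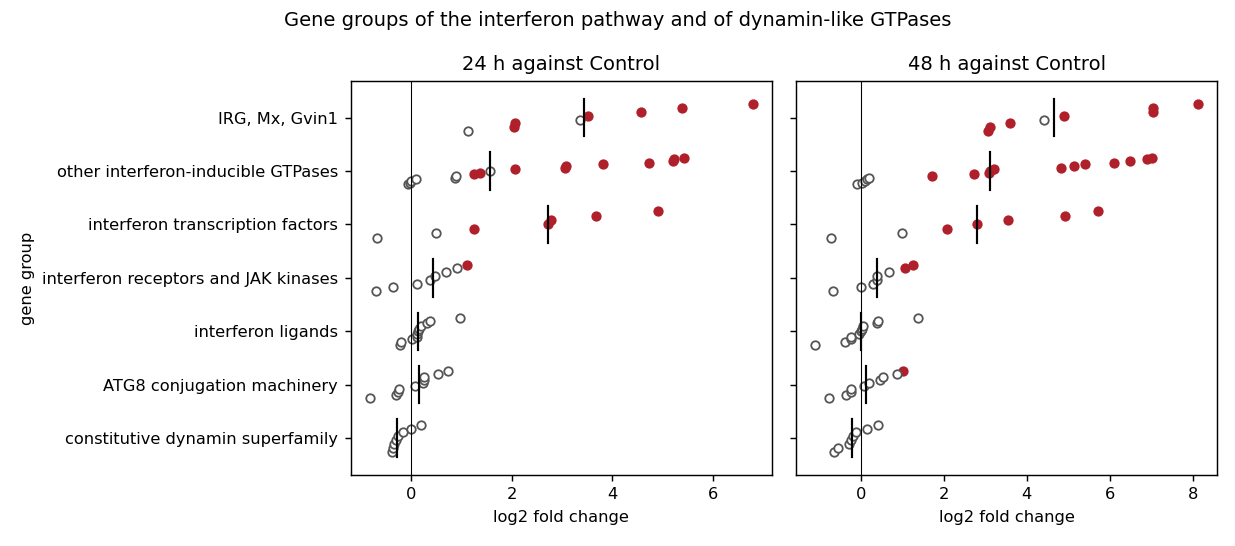
Log2 fold changes at 24 h and 48 h against Control for the members (top row, labelled IRG, Mx, Gvin1) and for 6 gene groups, with 1 point per gene tested, red where called higher, and a line at the group median. Members, other interferon-inducible GTPases and the transcription factors extend to the right. The medians of the ligands, autophagy genes and constitutive dynamin family lie near 0. At 48 h Ifna7 (1.37), Ifnk (-1.11) and Atg7 (1.01) lie farther out.

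Among genes upstream of the members, 5 transcription factors rose and no interferon gene passed the test. Of 7 transcription factors tested, 5 were called higher at both times: Batf2 (4.91 and 5.72), Irf7 (3.67 and 4.91), Stat2 (2.77 and 3.54), Irf9 (2.73 and 2.79) and Irf1 (1.25 and 2.08), with limma adjusted p-values of 0.000928 to 0.0262. Stat2 and Irf9 encode parts of the complex that binds the ISRE after type I interferon. Of 11 interferon genes tested, 0 were called and 0 had an unadjusted limma p under 0.05 at either time. The estimates for Ifna7 (1.37, SE 1.58) and Ifnk (-1.11, SE 0.839) at 48 h were too imprecise to read as no change. Ifnb1, Ifna4, Ifng and Ifne were not well above background on any array. Of 8 receptor and JAK kinase genes tested, Jak2 was called higher at both times (1.098 and 1.24) and Il10rb at 48 h (1.05), while the interferon gamma receptor gene Ifngr1 changed by -0.71 and -0.68, past the adjusted p (0.015 and 0.0172) but under 2-fold.

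Likeness to the mean pattern of the members over the 6 arrays was ranked by Euclidean distance between centred log2 levels. Only tested genes with a RefSeq symbol and outside the gene lists used here were ranked. The nearest of these were Lgals3bp (0.574), Mmp13 (0.639), Apol9a (0.747), Ifi47 (0.820) and H2-D1 (0.886). Ifi47 is itself an effector IRG gene and lies near Tgtp1 and Tgtp2. It rose by 3.66 at 24 h and 5.09 at 48 h (limma adjusted p = 0.00281 and 0.00127).

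Markers of macrophages, which carry the CSF-1 receptor, and of lymphocytes were read for comparison. Of 12 macrophage markers, Ptprc, Adgre1, Itgam, Cd14 and Mrc1 were well above background on all 6 arrays and Spi1, Lyz2 and Cd163 on none, and the summed level was 40.0 and 44.7 in Control, 33.2 and 40.5 at 24 h, and 26.5 and 35.7 at 48 h. Nearly all of that sum was Itgam, which was not called. Of the 6 tested, Mrc1 was called higher (4.27 and 3.56, limma adjusted p = 0.000845 and 0.000928), Cd14 passed the adjusted p under 2-fold (0.87 and 0.69, adjusted p = 0.0101 and 0.0191), and 0 were called lower. The summed level of 10 lymphocyte markers was 24.9 and 30.1 in Control and 27.7 to 35.7 in the stimulated arrays, with Cd3g and Ms4a1 not well above background on any array and 0 of 7 tested called by limma (1 with an unadjusted p under 0.05 at each time).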

How the data were processed

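Expression was measured on 6 single-color Agilent arrays, 2 for each of 3 groups taken from the sample labels. The labelled stimulation times were used; the study's methods give shorter ones. Intensity was quantified by the authors with Feature Extraction 11.0.1, and the deposited files hold the background-subtracted signal intensity of each spot, not normalized between arrays, with the mean and local background intensity. The authors also deposited log2 values for part of the probes; 99.81% of their differences between arrays lay within 0.05 of those in the log2 signals once a constant per array was removed, and the baseline of each probe is not stated. The study compared groups in GeneSpring at a p under 0.05 and 2-fold, run here unadjusted as an alternative; its normalization and filter are not given in the sources used here.

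Outlier spots were left out, spots of a probe averaged, and the 75th percentile of the array subtracted on the log2 scale. The brightest probe stood for a gene. All 24643 genes tested entered one limma fit (R 4.3.3, limma 3.58.1, lmFit and eBayes, 2-sided, group as the only term, 3 residual and 2.39 prior degrees of freedom) with Benjamini-Hochberg adjustment over all of them. With 2 arrays a group, the smallest p of an exact permutation test is 0.333. The fit was tested on simulated data. The number of arrays limits the precision: replicates correlated at 0.9926 to 0.9936 across genes, with an SD of their differences of 0.371 to 0.395 and 0 identical values.

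The members and the gene lists were chosen with earlier results of these data known. The text names every member, the called or otherwise needed genes of 11 lists, and the 5 genes of nearest pattern; 2 list genes are not reported here. Promoters came from RefSeq (GRCm38.p6), which matched 4 of the 8 members; Iigp1, Mx1, Mx2 and Gvin1 have none here. Probe positions are in mm9. Alternatives covered normalization, background correction, filter, probe choice, prior, call rule, test, block and left-out arrays.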

Additional observations from a re-analysis of the deposited data

How the results depend on the processing

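Each member kept a positive change at both times and from 24 h to 48 h under every setting in which it was tested. The counts of members called at 24 h and 48 h (6 and 7) stayed within 1.5 times under each scaling, background correction and intensity trend, with no filter, with the mean of a gene's probes and with only the groups compared. Median centring moved the all-gene median to -0.247 at 24 h and -0.144 at 48 h from 0.0366 and -0.0442, and the members' medians to 3.16 and 4.55. Normexp correction gave lower medians, 1.84 at 24 h and 3.32 at 48 h with the 75th percentile and 1.85 and 3.29 with quantile normalization, and it called 3 members between 48 h and 24 h in both cases, and Mx2 at 48 h. An intensity trend called 2 members between the times, the unadjusted rule 5 and the methods' t-test, unadjusted, 1. After Benjamini-Hochberg adjustment the methods' t-test called 0 members at 24 h and 0 at 48 h, where it called 0 of all genes; at its unadjusted threshold it called 6 and 7. With all 6 arrays required to be well above background, 4 members could be tested and 4 were called at 48 h. With no filter on dim probes Iigp1 lost its call at 24 h (adjusted p = 0.0522). Leaving out 1 array at a time took calls from members mainly at 24 h, where all-gene calls also fell without either Control array. Members gained no call between the times. Their medians were then 2.59 to 4.2 at 24 h and 4.08 to 6.14 at 48 h. A lone array was assumed to vary like the other groups. For single genes, 418 values kept direction and side of the threshold, 19 passed it newly and 31 no longer passed it. Over the alternatives the adjusted p of the called genes other than Tgtp1 ranged from 8.93e-05 to 0.195 at 24 h and from 1.5e-05 to 0.177 at 48 h, the upper ends from the methods' t-test.

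The replicate numbers shared by the groups were not treated as pairs, since the sources do not tie them to an experiment and the correlations of same-numbered deviations were 0.128, 0.0941 and 0.199. A replicate block gave 6 members called at 24 h, 7 at 48 h and 0 between the times, and changed no call.

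Signals near background limit Irgm2, Tgtp1, Mx1 and Mx2, for which 1 or both Control arrays were not well above it, so the size of their fitted changes depends on the background correction.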
